A study of Mus musculus with 8 samples.

Results

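Sox7, Sox17 and Sox18 form the SoxF group of transcription factors, and their rows were followed through single blood and lymphatic endothelial cells of a mouse melanoma. They are 3 of the 28692 gene symbols measured and 3 of 19 Sox genes among them. MT-ret melanoma fragments had been grown on the flank of 10 mice of the strain C57BL/6N, all of them tumour-bearing, and no endothelium from tumour-free tissue was analysed here. The endothelium was split by flow cytometry into blood vascular cells (BEC) and lymphatic cells (LEC), 10000 of each, and each sort was made into 4 droplet libraries with the 10x Chromium 3′ v2 kit, which tags each captured RNA molecule with a unique molecular identifier (UMI). The 10 mice are not told apart in the matrix and the column names carry no library number, so each sort is 1 sample. No test between sorts was possible, and no p-value or replicate check is given for any value here.

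SoxF proteins bind DNA through a high-mobility-group domain and are found in the endothelium of developing vessels, where they act partly in place of each other. Sox17 is best known for its part in arterial identity, upstream of and alongside Notch signalling. Sox18 is known for starting the lymphatic programme by switching on Prox1 in cells of the cardinal vein, and its mutations cause hair and lymphatic defects in mouse and human. Sox7 acts in early blood and endothelial precursors and in vessel growth.

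On the mouse assembly GRCm38 (mm10), Sox17 lies on chromosome 1 at 4490931 to 4497354, minus strand, with 8 annotated transcripts. It overlaps the transcript Gm37587 of the opposite strand, which is not a row of the matrix. Sox18 lies on chromosome 2 at 181669836 to 181671640, minus strand, with 1 transcript. Sox7 lies on chromosome 14 at 63943673 to 63950732, plus strand, with 1 transcript. No other annotated gene overlapped Sox18 or Sox7. Levels below are in CPM, a gene's UMIs per 1000000 UMIs of the summed cells. They are not scaled to transcript length, so they are compared between cells for 1 gene and not between genes. Each interval is a 95% interval for counting error alone, with no part for mice or libraries.

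The BEC sort held 3228 cells with a median of 19416 UMIs, and the LEC sort held 4407 cells with a median of 11000. Cells were gated on marker genes, none of them a Sox gene, after every cell had been thinned to 5000 UMIs. Of the BEC sort, 97.3% of cells were BEC-gated, with at least 80% of their lineage UMIs from BEC markers such as Plvap and Flt1. Of the LEC sort, 52.5% were LEC-gated by the mirrored rule with markers such as Lyve1 and Reln, 33.2% carried markers of both lists, 3.02% were BEC-gated and 6.76% were melanocytic. In the mixed-marker cells Plvap alone gave 1670 of the 1794 CPM of the BEC list, against 265 CPM in LEC-gated cells, while their LEC markers summed to 2827 CPM. So the labelled lineage of the LEC sort was borne out by its markers in most but not all of its cells, and the SoxF levels between sorts are given for both all cells and gated cells. Of the cell barcodes, 34 occurred in both sorts.

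The 3 genes separated the 2 kinds of endothelium to very different degrees: Sox17 was found mainly in blood vascular cells, Sox7 was higher in blood vascular cells but present in both, and Sox18 was near level. In all cells Sox17 was at 159 CPM in the BEC sort (156 to 161, from 11303 UMIs) and 6.93 CPM in the LEC sort (6.28 to 7.64, from 411 UMIs), a ratio of 22.9 (20.7 to 25.3). Sox7 was at 45.6 CPM in the BEC sort (44.0 to 47.2) and 19.5 CPM in the LEC sort (18.4 to 20.6), a ratio of 2.34 (2.19 to 2.50). Sox18 was at 125 CPM in the BEC sort (122 to 128) and 102 CPM in the LEC sort (99.5 to 105), a ratio of 1.22 (1.19 to 1.27). Thus 2 of the 3 exceeded a 2-fold difference towards BEC, a size that 8.76% of the 8307 genes at 10 CPM or more in either sort reached.

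Restricting each sort to cells of its own lineage widened the Sox17 difference and narrowed that of Sox18. Sox17 was at 162 CPM in 3140 BEC-gated cells and 1.34 CPM in 2314 LEC-gated cells, a ratio of 120 (87.2 to 171). The LEC-gated level came from 37 UMIs in 18 cells (0.946 to 1.85 CPM). Melanocytic-gated cells of the same sort, which should lack the gene, held 1.42 CPM, but all 11 UMIs were in 1 cell. The 297 others had 0, and 3 UMIs in them would have been 0.388 CPM. These values do not settle whether LEC-gated cells held Sox17 above background. Sox7 was at 46.3 CPM in BEC-gated and 19.1 CPM in LEC-gated cells, a ratio of 2.42 (2.20 to 2.66). Its level in melanocytic-gated cells was 2.32 CPM, so the LEC-gated level was 8.24 times higher (5.16 to 14.0). Sox18 was at 128 CPM in BEC-gated and 112 CPM in LEC-gated cells, a ratio of 1.14 (1.09 to 1.19), with 12.4 CPM in melanocytic-gated cells. Of all 8278 genes measured in this comparison 9.62% differed by 2-fold or more towards BEC and 11.9% towards LEC, and the same 2 SoxF genes were in the first set.

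**Figure D1:**
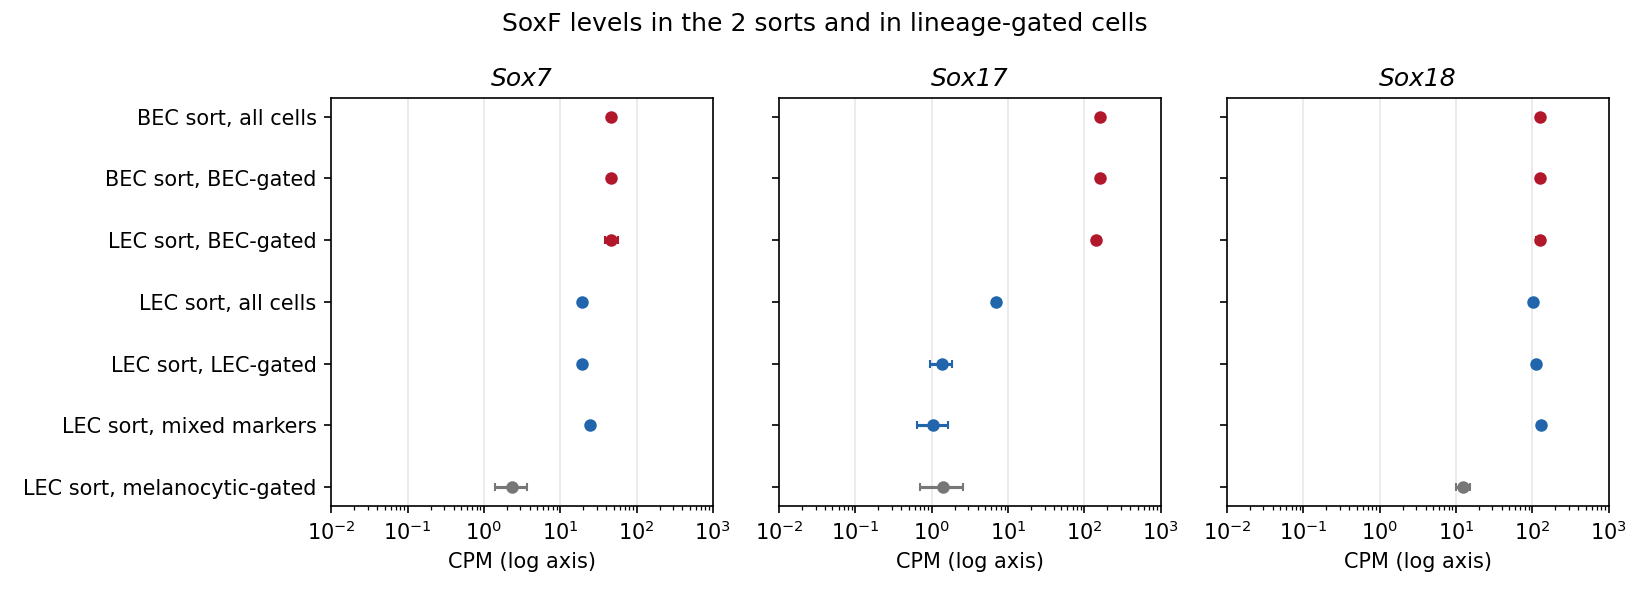
Level of each SoxF gene in CPM on a log axis (points, with 95% counting intervals) in the whole sorts and in cells gated on lineage markers, with melanocytic cells of the LEC sort in grey. Sox17 lies at 143 to 162 CPM in each group of BEC-gated cells and at 1.34 CPM or lower in LEC-gated and mixed-marker cells, while Sox18 lies between 102 and 131 CPM in the 6 groups other than melanocytic cells.

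BEC-gated cells found in the LEC sort allowed both lineages to be compared inside 1 sort. In these 133 cells Sox17 was at 143 CPM (128 to 159), a ratio of 106 (75.5 to 154) over the LEC-gated cells beside them. Sox7 was at 46.8 CPM, 2.44 times the LEC-gated level (1.97 to 3.002), and Sox18 at 127 CPM, 1.13 times (1.002 to 1.27). Of all genes measured 8.91% were at least 2-fold higher in this comparison, and Sox7 and Sox17 were again the members among them. The summed levels were close to those of BEC-gated cells of the BEC sort, whose ratios over the 133 cells were 0.990 for Sox7 (0.819 to 1.21), 1.13 for Sox17 (1.02 to 1.26) and 1.01 for Sox18 (0.898 to 1.13). After thinning, Sox17 had a UMI in 30.1% of the 133 cells (22.4% to 38.6%), against 41.5% in the BEC sort (39.8% to 43.3%). Of their Sox17 UMIs, 9.73% were in 1 cell. Their LEC markers summed to 321 CPM, against 4.73 CPM in BEC-gated cells of the BEC sort.

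These few cells held most of the Sox17 of the LEC sort. They made up 3.02% of its cells and gave 339 of its 411 Sox17 UMIs, or 82.5%, against 9.61% of its Sox7 UMIs and 4.98% of its Sox18 UMIs. LEC-gated cells gave 37 Sox17 UMIs and mixed-marker cells 20. The mixed-marker cells, although they carried Plvap, held Sox17 at 1.05 CPM (0.641 to 1.62), Sox7 at 24.9 CPM and Sox18 at 131 CPM. For Sox17 that was 0.781 times the LEC-gated level (0.429 to 1.38), and for Sox7 and Sox18 1.30 times (1.15 to 1.47) and 1.17 times (1.11 to 1.23).

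Within each sort, cells were further assigned to subsets by the markers that score highest in them, and are named by those markers. Arterial cells (179) carried Gja5, Bmx, Gkn3 and Stmn2, and venous cells (242) Ackr1, Selp, Sele and Vwf. The other blood vascular subsets were Apln/Tnfrsf9 (302), Npr3/Vegfc (373) and Aplnr/Ramp3 (438), with 1606 cells in none. The lymphatic subsets were Tppp3/Igfbp5 (308), Cd24a/Scn3a (270), Npy/Ndufa4l2 (209), Lsr/Postn/Foxp2 (196) and Cd74/Ccl2 (96), with 1235 cells in none. The sets are cuts through a score rather than separate types: 236 BEC-gated and 179 LEC-gated cells lay within 0.1 of a cut.

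Sox17 was highest in arterial cells. It stood at 407 CPM there (384 to 430, from 1263 UMIs), against 150 CPM in all other BEC-gated cells, a ratio of 2.71 (2.55 to 2.87). After thinning, 64.2% of arterial cells had a Sox17 UMI (56.8% to 71.3%), and 1 cell held 4.43% of the subset's Sox17 UMIs. Npr3/Vegfc cells followed at 191 CPM (182 to 201) and Apln/Tnfrsf9 cells at 165 CPM (155 to 174). Aplnr/Ramp3 cells were at 144 CPM, unassigned BEC-gated cells at 143 CPM, the BEC-gated cells of the LEC sort at 143 CPM and venous cells at 128 CPM (118 to 139). The first 3 levels did not overlap each other or the next within counting error, while the last 4 each overlapped their neighbour. All LEC subsets were at 1.76 CPM or lower, with 1 to 26 UMIs each, and their intervals overlapped one another.

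Beside the arterial Sox17 level stood 2 other measures. The 8 stromal and mural markers summed to 94.96 CPM in arterial cells against 6.00 to 9.95 CPM in the 4 other named BEC subsets. The pericyte gene Rgs5 gave 89.5 CPM of it, against 12.4 CPM in all BEC-gated cells. The pericyte receptor gene Pdgfrb was at 3.22 CPM, against 0.390 CPM, and 2 of the 8 markers, Pdgfra and Cspg4, were at 0. Among cells without a UMI of these genes after thinning, Sox17 was at 378 CPM in 156 arterial cells and 147 CPM in 2839 other BEC-gated cells, a ratio of 2.56. The median depth of arterial cells was 14273 UMIs, against 19452 for all BEC-gated cells.

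Sox18 varied less across the blood vascular subsets, and its lowest endothelial level was lymphatic. It was highest in arterial cells, at 160 CPM (146 to 175), and in Npr3/Vegfc cells, at 154 CPM (145 to 163). Among blood vascular subsets it was lowest in venous cells, at 94.6 CPM (86.1 to 104), a ratio of 0.727 to the other BEC-gated cells (0.660 to 0.798). Among lymphatic cells it ran from 138 CPM in Tppp3/Igfbp5 cells (126 to 151) and 128 CPM in Lsr/Postn/Foxp2 cells down to 86.2 CPM in Cd74/Ccl2 cells (70.4 to 105) and 58.7 CPM in Npy/Ndufa4l2 cells (50.01 to 68.5).

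The Npy/Ndufa4l2 cells, which also carry the placental growth factor gene Pgf and the oxygen-sensing hydroxylase gene Egln3, had 0.497 times the Sox18 level of the other LEC-gated cells (0.422 to 0.583). After thinning, 18.7% of them had a Sox18 UMI (13.6% to 24.6%), against 34.0% of all LEC-gated cells. Sox18 was just past the 2-fold size in this comparison, in which 9.11% of all genes measured were at least 2-fold lower and 5.14% at least 2-fold higher. The ratio fell short of 2-fold in some alternatives. It was 0.584 with a second random thinning, 0.545 at a score cut of 0.5 and 0.512 at a lineage share of 0.5. In the other alternatives tried it stayed past 2-fold, at 0.477 to 0.493. Sox7 was not lower in these cells, at 22.8 CPM and a ratio of 1.22 (0.921 to 1.59).

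Sox7 followed yet another order. In blood vascular cells it was highest in Apln/Tnfrsf9 cells at 56.9 CPM (51.6 to 62.7) and venous cells at 55.9 CPM (49.4 to 63.0), then arterial cells at 51.2 CPM (43.5 to 59.8). It was lowest in Aplnr/Ramp3 cells at 39.9 CPM (36.0 to 44.1) and Npr3/Vegfc cells at 39.3 CPM (34.9 to 44.0). In lymphatic cells it ran from 29.3 CPM in Cd74/Ccl2 cells (20.4 to 40.7), 26.1 CPM in Lsr/Postn/Foxp2 cells and 22.8 CPM in Npy/Ndufa4l2 cells down to 12.5 CPM in Tppp3/Igfbp5 cells (9.08 to 16.9) and 10.5 CPM in Cd24a/Scn3a cells (7.15 to 14.8). The last of these was 0.517 times the level of the other LEC-gated cells (0.350 to 0.739), from 32 UMIs. In the ordered list every pair of neighbours overlapped within counting error, except at the step from unassigned lymphatic cells (19.9 CPM) to Tppp3/Igfbp5 cells and at the step from Cd24a/Scn3a to melanocytic cells.

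The venous cells therefore held 1 member above and 2 members below the rest of the blood vascular cells: Sox7 at 1.23 times (1.08 to 1.39), Sox17 at 0.782 times (0.720 to 0.848) and Sox18 at 0.727 times. None of these reached 2-fold, a size that 5.84% of all genes measured reached upward in venous cells and 5.0% downward. In arterial cells Sox17 reached it upward with 4.57% of genes, whereas Sox18 was at 1.27 times (1.16 to 1.39) and Sox7 at 1.11 times (0.942 to 1.30). Downward, 2.54% of genes were 2-fold lower in arterial cells.

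**Figure D2:**
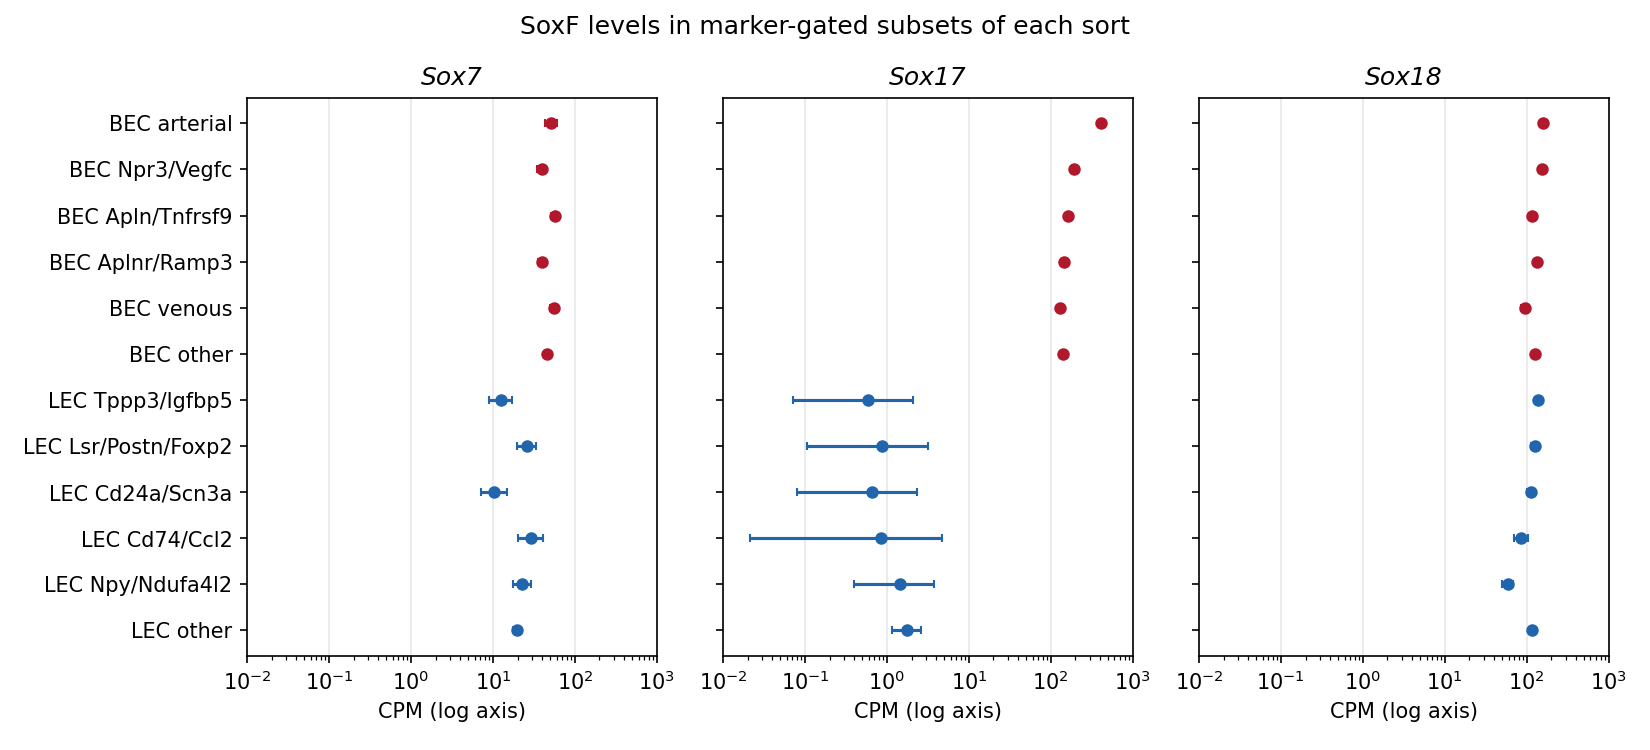
Level of each SoxF gene in CPM on a log axis (points, with 95% counting intervals) in marker-gated subsets of BEC-gated (red) and LEC-gated (blue) cells. Sox17 peaks in arterial cells at 407 CPM and is at 1.76 CPM or lower in every lymphatic subset, and Sox18 is lowest in Npy/Ndufa4l2 cells at 58.7 CPM.

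Cells with cell cycle transcripts such as Mki67 and Top2a had lower summed CPM of all 3 genes in the blood vascular lineage. At equal depth only the share of cells with Sox17 was lower beyond counting error. In 318 cycling BEC-gated cells Sox17 was at 107 CPM against 170 CPM in the 2822 others, a ratio of 0.629 (0.588 to 0.671). Sox18 was at 101 CPM against 132 CPM, a ratio of 0.766 (0.715 to 0.820), and Sox7 at 40.3 CPM against 47.2 CPM, a ratio of 0.853 (0.764 to 0.950). In 132 cycling LEC-gated cells Sox7 was at 12.3 CPM against 19.8 CPM, a ratio of 0.623 (0.413 to 0.906) from 29 UMIs. The Sox18 ratio there, 0.882 (0.769 to 1.01), reached 1 within counting error. Cycling cells were deeper, with a median of 24686 UMIs against 19014 in BEC-gated cells. The part of depth in these ratios was not tested. After thinning, Sox17 had a UMI in 31.8% of cycling BEC-gated cells (26.7% to 37.2%) and 42.6% of the others (40.8% to 44.5%). For Sox18 the shares were 39.0% (33.6% to 44.6%) and 44.0% (42.2% to 45.9%), which overlapped. For Sox7 they were 17.6% (13.6% to 22.3%) and 17.2% (15.8% to 18.6%), so not lower in cycling cells.

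At equal depth each gene was found in part of the cells only. After thinning to 5000 UMIs, Sox17 had a UMI in 41.5% of BEC-gated cells (39.8% to 43.3%) and 0.432% of LEC-gated cells (0.207% to 0.793%), and in 0.336% of melanocytic-gated cells. Sox18 had one in 43.5% of BEC-gated cells (41.8% to 45.3%), 34.0% of LEC-gated cells (32.1% to 36.0%) and 7.38% of melanocytic-gated cells. Sox7 had one in 17.2% of BEC-gated cells (15.9% to 18.6%), 6.01% of LEC-gated cells (5.07% to 7.05%) and 2.01% of melanocytic-gated cells. The Sox7 and Sox18 shares of LEC-gated cells lay above those of melanocytic-gated cells, whereas the Sox17 background share rests on 1 cell of 298 and gives no comparison. Before thinning, median depths were 19452, 10165 and 26184 UMIs in these groups, and the shares of BEC-gated and LEC-gated cells were 64.6% and 0.778% for Sox17, 76.3% and 49.0% for Sox18, and 36.5% and 9.90% for Sox7.

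Sox17 had the highest ratio of variance to mean of the 3 across blood vascular cells. The variance of its thinned UMIs was 2.79 times their mean, against 1.34 for Sox18 and 1.62 for Sox7. In 95 BEC-gated cells (3.03%) Sox17 still had 5 or more UMIs after thinning, as against 16 cells for Sox18 and 5 for Sox7. Both measures can rise with the level of a gene, and levels were not matched. In BEC-gated cells they were 162 CPM for Sox17, 128 CPM for Sox18 and 46.3 CPM for Sox7. The highest unthinned value was 56 Sox17 UMIs, in 1 arterial cell. In LEC-gated cells the corresponding ratios of variance to mean were 1.77 for Sox18 and 1.73 for Sox7.

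**Figure D3:**
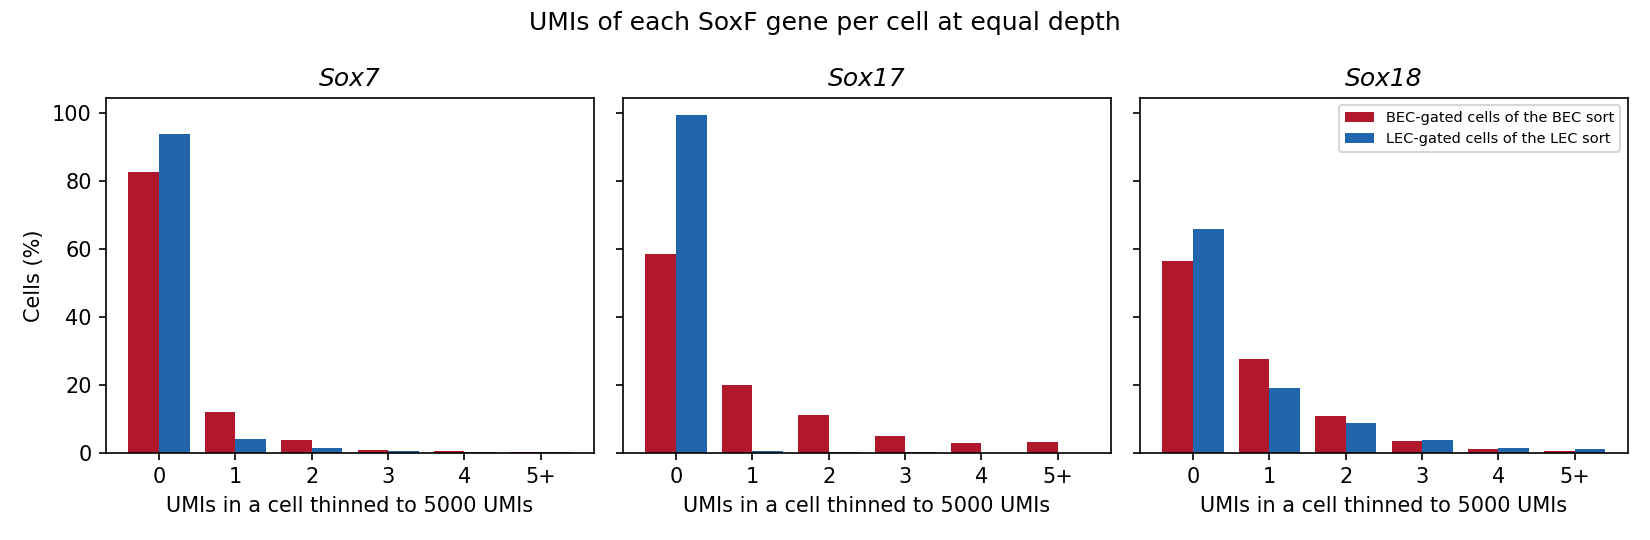
Share of cells (%) with 0, 1, 2, 3, 4 or at least 5 UMIs of each SoxF gene after thinning to 5000 UMIs, in BEC-gated cells of the BEC sort (red) and LEC-gated cells of the LEC sort (blue). Sox18 is above 0 in 43.5% of BEC-gated and 34.0% of LEC-gated cells. Sox17 has a tail of 3.03% of BEC-gated cells at 5 or more and 0.432% of LEC-gated cells above 0.

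In blood vascular cells each member was found about as often in cells with another member as in cells without it. Of BEC-gated cells 27.5% had a thinned UMI of no member, 45.7% of 1, 23.8% of 2 and 2.99% (94 cells) of all 3. Sox18 was found in 43.7% of cells with Sox17 (41.0% to 46.5%) and 43.4% of cells without it (41.1% to 45.7%). Sox17 was found in 43.0% of cells with Sox7 and 41.2% of cells without it, and Sox18 in 41.9% of cells with Sox7 and 43.8% of cells without it. The intervals of each pair overlapped. In LEC-gated cells 61.4% had no member and 36.9% had 1. Sox18 was found there in 36 of 139 cells with Sox7, or 25.9% (18.8% to 34.0%), and in 34.5% of cells without Sox7 (32.5% to 36.6%), with overlapping intervals.

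Genes known to work with or under SoxF factors were compared over the same cells, from lists chosen with earlier results of these data known. Of 11 partner transcription factors, all at 10 CPM or more, 1 was at least 2-fold higher in BEC-gated cells and 3 in LEC-gated cells, where 9.62% and 11.9% of all genes measured were. Over all cells of the sorts the counts were also 1 and 3. Their median log2 ratio of BEC over LEC (with 1 CPM added) was 0.26, against -0.10 over all genes measured. The ETS-family factor Elk3 was at 229 CPM in BEC-gated and 398 CPM in LEC-gated cells. Ctnnb1, which encodes β-catenin, was at 277 and 261 CPM, and Mef2c, a known dimer partner of Sox18, at 271 and 170 CPM. The lymphatic master regulator Prox1 was at 0.795 and 281 CPM, or 353 times higher in LEC-gated cells (271 to 469).

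The other 3 partners past 2-fold were chosen for mention after their values were seen. The ETS-family factor Ets2 was 2.92 times higher in BEC-gated cells (2.75 to 3.09). Nr2f2, the venous and lymphatic factor COUP-TFII, was 6.66 times higher in LEC-gated cells (6.33 to 7.004), and Rbpj, the DNA-binding partner of Notch, 2.55 times higher (2.23 to 2.92).

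Of 10 genes reported as SoxF targets, 3 were at least 2-fold higher in BEC-gated cells and 2 in LEC-gated cells, beside the same 9.62% and 11.9% of all genes, with a median log2 ratio of 0.55. Over all cells of the sorts the counts were 4 and 3, where 8.76% and 11.7% of all genes were past 2-fold. The added genes were Cdh5, at 2.17 times towards BEC, and the adhesion molecule gene Vcam1, which turned direction: it was 2.21 times higher in the whole LEC sort (2.07 to 2.37) but 1.38 times higher in BEC-gated than in LEC-gated cells (1.22 to 1.56). Vcam1 was named after its values were seen. The tight junction gene Cldn5 was at 474 CPM in BEC-gated and 2178 CPM in LEC-gated cells, 4.60 times higher in the lymphatic lineage (4.54 to 4.66). Prox1, itself a Sox18 target, was the other. The Notch ligand gene Dll4 was 6.03 times higher in BEC-gated cells (5.68 to 6.40), and Cdh5, which encodes VE-cadherin, was 1.94 times higher (1.90 to 1.99). The remaining pair past 2-fold, named after their values were seen, were the endothelial Notch receptor gene Notch4, 19.8 times higher in BEC-gated cells (16.4 to 24.0), and the vessel guidance receptor gene Robo4, 6.31 times (5.88 to 6.78).

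Of 5 Notch response genes, 3 were measured at 10 CPM or more and 2 were at least 2-fold higher in BEC-gated cells (9.62% of all genes), as they were over all cells (8.76%). Nrarp was 8.06 times higher there (7.64 to 8.52) and Hey1 3.10 times (2.93 to 3.29), while Hes1 was at 223 CPM in BEC-gated and 394 CPM in LEC-gated cells. Of 6 Wnt response genes 1 reached 10 CPM, the Wnt inhibitor gene Nkd1, at 10.7 CPM in LEC-gated cells and 21.2 times higher there (14.9 to 31.0), while over all cells of the sorts no Wnt response gene reached 10 CPM.

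In arterial cells, where Sox17 was highest, 1 of 10 partners measured, 2 of 9 targets and 1 of 3 Notch response genes exceeded the rest of the BEC-gated cells by 2-fold or more, and 1 partner was lower, beside 4.57% and 2.54% of all genes. Hey1 was 2.31 times higher (2.16 to 2.47), and Cldn5 (1.86 times) and Dll4 (1.24 times) were higher by less than 2-fold. Named after their values were seen, Rbpj was 2.41 times higher (1.73 to 3.29), the arterial ephrin gene Efnb2 2.28 times (2.07 to 2.51) and Vcam1 2.02 times (1.64 to 2.47). Nr2f2 was at 0.350 times the level of the others (0.242 to 0.490). Some of these levels were shared with other subsets. Npr3/Vegfc cells had Hey1 at 317 CPM (arterial 312), Dll4 at 443 CPM (306) and Efnb2 at 140 CPM (154). Apln/Tnfrsf9 cells had Cldn5 at 1014 CPM (arterial 848). Nr2f2 was at 11.9 CPM in Npr3/Vegfc cells (arterial 10.9) and 140 CPM in venous cells. Rbpj and Vcam1 were lower in Npr3/Vegfc cells, at 2.39 CPM (arterial 14.5) and 5.44 CPM (34.4).

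In venous cells, where Sox17 was lowest among blood vascular subsets, 4 of 9 targets were at least 2-fold lower and 1 was higher, and all 3 Notch response genes measured were lower, beside 5.0% of all genes lower and 5.84% higher. Dll4 was at 0.159 times the level of other BEC-gated cells (0.138 to 0.182), Cldn5 at 0.172 times, Notch4 at 0.195 times and Efnb2 at 0.272 times, while Vcam1 was 7.34 times higher (6.51 to 8.26). Hey1 was at 0.127 times, Hes1 at 0.463 times and Nrarp at 0.481 times. Of 10 partners 1 was past 2-fold, Nr2f2 at 6.30 times (5.74 to 6.91). Notch4, Efnb2, Vcam1 and Nr2f2 were named here after their values were seen. Sox17 itself differed far less, at 0.782 times.

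**Figure D4:**
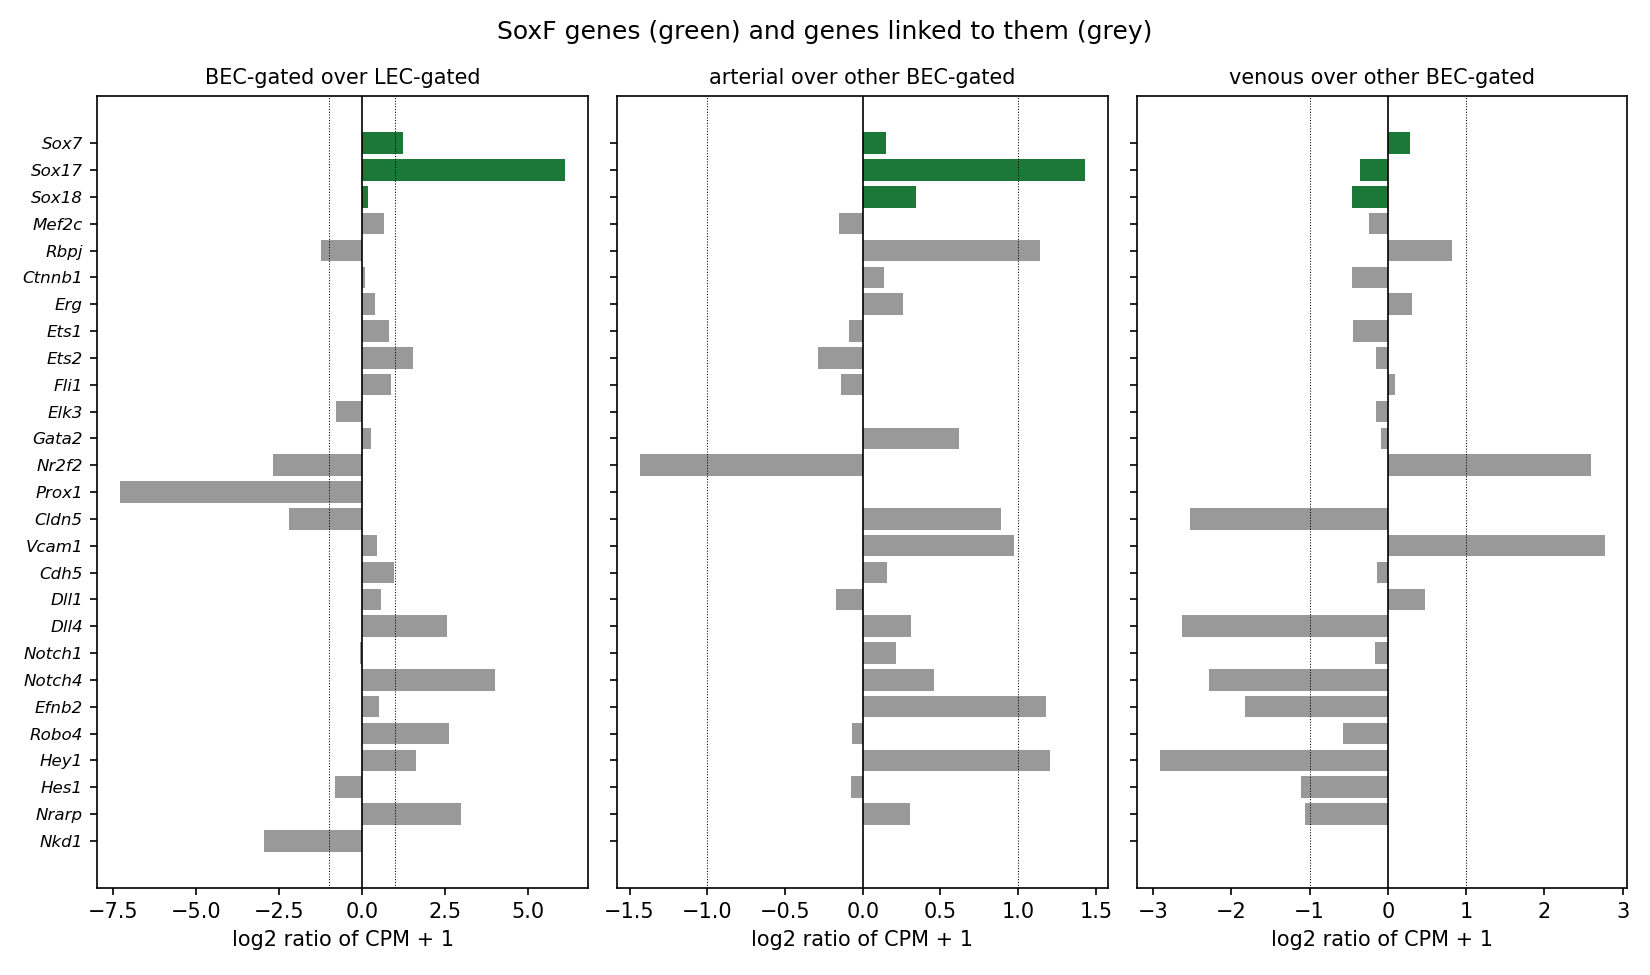
Log2 ratio of CPM, each with 1 added, for SoxF genes (green) and the partner, target and response genes at 10 CPM or more (grey), in BEC-gated over LEC-gated cells, arterial over other BEC-gated cells and venous over other BEC-gated cells; dotted lines mark 2-fold, panels have their own scales and missing bars are genes under 10 CPM. Sox17 is past 2-fold in the left and middle panels, and in the venous panel no SoxF gene is, although Hey1, Dll4, Cldn5 and Notch4 are.

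In the lymphatic Npy/Ndufa4l2 cells, where Sox18 was lowest, 1 of 11 partners, 2 of 10 targets and 1 of 3 Notch response genes were at least 2-fold lower than in other LEC-gated cells and 1 target was higher, beside 9.11% of all genes lower and 5.14% higher. The partner count is thus near the share of all genes. Prox1 was at 210 CPM against 289 CPM, a ratio of 0.726 (0.666 to 0.791), and Cldn5 at 0.577 times (0.558 to 0.597). Those past 2-fold were the ETS factor Erg at 0.496 times (0.387 to 0.627), Vcam1 at 0.128 times from 5 UMIs, Efnb2 at 0.402 times, Hes1 at 0.444 times and Notch4 at 3.24 times (2.06 to 4.98). All of these but Hes1 were named after their values were seen. Low Vcam1 was not particular to these cells, which held 1.81 CPM. It was at 0.654 CPM in Cd24a/Scn3a, 2.33 CPM in Tppp3/Igfbp5 and 5.22 CPM in Lsr/Postn/Foxp2 cells, but 141 CPM in Cd74/Ccl2 cells. Genes of this comparison as a whole had a median log2 ratio of -0.12, against which the partners' median was -0.46 and the targets' -0.37.

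The genes whose levels ran most like each member over the 10 named subsets were ranked by Pearson's r of log2(CPM + 1) among 7494 genes, as a description over subsets that share libraries, with no test. For Sox17 they were Lama5 (r = 0.993), a basement membrane laminin gene, Mecom (0.993), a transcription factor gene, Hmox2 (0.992), Nrp1 (0.990), which is itself a BEC gate marker, and Pja1 (0.990). Each of the 5 was higher in every blood vascular subset than in any lymphatic one, as Sox17 was. Mecom was at 89.8 CPM in arterial cells, 50.1 CPM in venous cells and 23.0 CPM in Aplnr/Ramp3 cells, and had 0 UMIs in 4 of the 5 lymphatic subsets.

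For Sox18, whose blood vascular and lymphatic levels overlapped, the closest were Mxd4 (r = 0.973), Map2k2 (0.961), Fbxo9 (0.960), Ehd2 (0.949) and Polg (0.946). Mxd4, a MAX-binding transcription factor gene, was at 164 CPM in arterial cells and 64.5 CPM in Npy/Ndufa4l2 cells, and Ehd2, a caveolar ATPase gene, at 361 and 111 CPM. For Sox7 they were Pdlim5 (r = 0.949), Rtp4 (0.931), Plekhg2 (0.925), Upp1 (0.924) and Itga5 (0.922), the last an integrin subunit gene. Among the members themselves r was 0.844 for Sox7 with Sox17, 0.454 for Sox17 with Sox18 and 0.142 for Sox7 with Sox18. The 0.844 includes the step from blood vascular to lymphatic subsets, and Sox17 had only 1 to 4 UMIs in each named lymphatic subset. Within the blood vascular subsets the 2 genes differed in order. Npr3/Vegfc cells were second for Sox17 at 191 CPM but lowest for Sox7 at 39.3 CPM.

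Of the 16 other Sox genes, 3 reached 10 CPM in either sort. Sox4, a SoxC gene, was at 144 CPM in the BEC sort and 202 CPM in the LEC sort. Sox13, a SoxD gene, was at 12.4 and 3.98 CPM, and 3.80 times higher in BEC-gated than in LEC-gated cells (3.06 to 4.77). The neural crest factor gene Sox10 was at 1.96 and 24.0 CPM in the sorts but at 139 CPM in melanocytic-gated cells and 2.14 CPM in LEC-gated cells.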

How the data were processed

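The authors deposited 1 matrix of UMI counts, unnormalized, with 28692 genes as rows and 7635 cells as columns. Cell Ranger 2.1.1 and the build mm10 are named in the submitters' processing notes; how the authors chose cells is not stated in these sources. Members, marker lists and linked lists were chosen with earlier results of these data known.

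UMIs were summed over cells as CPM. CPM values have exact Poisson intervals, ratios exact conditional binomial intervals and shares exact Clopper-Pearson intervals, all at 95% and for counting error only. Cells thinned to 5000 UMIs (none was shallower) were gated in turn. Cells with at least 5 UMIs from at least 2 genes of a melanocytic, stromal or mural, leukocyte, or epithelial, erythroid or platelet list were excluded. Endothelial cells had at least 3 UMIs from at least 2 pan-endothelial genes. BEC-gated cells had a BEC share of at least 0.8 of at least 3 lineage UMIs, LEC-gated cells at most 0.2. A subset needed a marker score of at least 1 standard deviation and 0.5 above the next. Cycling cells had at least 3 UMIs from at least 2 of the cycle genes. No doublet caller was run. Ratios were called at 2-fold, among genes at 10 CPM or more in either group.

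Named genes were the members, other Sox genes at 10 CPM or more, up to 4 genes of highest level per linked list, and for each member the 5 genes most alike over subsets (among those at 20 CPM or more in a subset); others are marked. Positions came from GENCODE M21. The code of the sort comparison was checked on simulated Poisson counts of 7707 genes, with every planted change larger than 2-fold. There 100% of 200 changed genes were called and 95.1% of intervals held the true ratio. Such counts hold no added spread between cells, mice or libraries, so the check cannot show how the intervals cover in the real data. Planted arterial cells were recovered at 66.7%, so subsets are incomplete. Alternatives included other size factors, cuts, depths and random thinnings. Python 3.11.15, numpy 2.4.6, scipy 1.17.1, pandas 2.3.3 and matplotlib 3.10.9 were used.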

Additional observations from a re-analysis of the deposited data

How the results depend on the processing

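Over 96 alternative values no ratio changed direction, 61 moved by less than the counting interval and 35 by more. The subsets tried here were picked after their values were seen, and the lineage share of 0.5, which made 3428 cells LEC-gated, was added after seeing the data. Sox17 of BEC over LEC, 22.9 in all cells, was 120 in own-lineage cells, 133 and 127 at lineage shares of 0.9 and 0.5, 25.4 after scaling by median-of-ratios factors (a shift of 0.15 in every log2 ratio), 34.2 as a mean over cells, 34.4 thinned, 25.8 without cycling cells and 27.4 without the deepest 5% of cells. Sox18, 1.22, was 1.14 in own-lineage cells, and 1.20 and 1.08 at lineage shares of 0.9 and 0.5. The Sox18 ratio was 1.36 with size factors, 1.16 as a mean over cells, 1.16 thinned and 1.18 without the deepest cells. Sox7, 2.34, was 2.55 and 2.18 at shares of 0.9 and 0.5 and 2.60 with size factors. The arterial Sox17 ratio, 2.71, was 2.48 and 2.89 at score cuts of 0.5 and 1.5, 2.54 with another thinning and 2.52 without cycling cells. Venous Sox17 was 0.714 as a mean over cells, Sox18 in Npy/Ndufa4l2 cells 0.584 with another thinning, and in Tppp3/Igfbp5 cells 1.14 (from 1.27) at a share of 0.5. The cause was not tested. Shares of cells with a UMI follow depth: unthinned and at 2000 UMIs they were 36.5% and 8.34% for Sox7, 64.6% and 24.2% for Sox17 and 76.3% and 22.1% for Sox18 in BEC-gated cells, and 9.90% and 3.41% for Sox7 and 49.0% and 18.7% for Sox18 in LEC-gated cells, with 0.173% for Sox17 at 2000 UMIs. No paired analysis was possible because the columns carry no library number, and for the same reason no library could be left out in turn. Intervals therefore omit all spread between mice, sorts and libraries, and whether lymphatic Sox17 lies above background is not settled, since the background rests on 1 melanocytic-gated cell (setting it apart was chosen after seeing the data).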

Other observations

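Sox9 and Sox11, which were under 10 CPM in both sorts, were picked out after their values were seen. Sox9 gave 200 UMIs (7.26 CPM) in LEC-gated cells and 1 UMI in BEC-gated cells of the BEC sort. Inside the LEC sort the difference was much smaller. The BEC-gated cells there gave 8 Sox9 UMIs (3.37 CPM), or 0.464 times the LEC-gated level (0.198 to 0.932). Within the lymphatic lineage it was at 21.4 CPM in Npy/Ndufa4l2 cells (16.3 to 27.6, from 59 UMIs in 18 cells) and at 3.48 to 11.7 CPM in the 4 other named subsets. Melanocytic-gated cells of the same sort were at 12.5 CPM for Sox9 and at 139 CPM for Sox10, against 2.14 CPM in LEC-gated cells. Sox11 was at 16.0 CPM in Aplnr/Ramp3 cells (13.6 to 18.8), 10.1 CPM in Npr3/Vegfc cells, 6.12 CPM in arterial cells and 1.03 CPM in venous cells (0.336 to 2.41). Melanocytic-gated cells of the LEC sort were above all of these for Sox11, at 29.2 CPM (25.5 to 33.2). Sox13 had its highest level in arterial cells, at 29.6 CPM (23.9 to 36.3), against 10.1 to 14.3 CPM in the 4 other named blood vascular subsets. Sox4 was lowest in arterial cells, at 74.0 CPM (64.8 to 84.2), and highest among blood vascular subsets in Apln/Tnfrsf9 cells, at 203 CPM (193 to 213). In lymphatic cells Sox4 was highest in Cd24a/Scn3a cells, at 280 CPM, and melanocytic-gated cells of the LEC sort were at 229 CPM.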
